A study of Rattus norvegicus with 28 samples.

Results

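Neural progenitor cells were transplanted into the contused rat spinal cord 1 week after injury, and the cord was profiled 1 week later, 2 weeks after injury. The 4 arrays of this subacute transplant group (T2_NPC) were compared with the 4 arrays of injured cord at 2 weeks (T2), 8 of the 28 arrays of the study. Adult female Sprague Dawley rats had received a 250 kdyn contusion at thoracic level T8, and each array held RNA from a 1.5 cm piece of cord around the lesion. T2_NPC animals received 1000000 progenitors, grown from injured cords of adult rats and called injury-activated in the labels, at 2 points 2 mm rostral and caudal to the lesion, in 5 µl each. The care protocol that all labels share includes FK-506 (tacrolimus, an immunosuppressant that blocks calcineurin) at 1 mg/kg, begun a day ahead of the graft, and the methods of the study give injured controls injections of medium without cells. The T2 labels themselves name only the injury, so when T2 animals began FK-506 and whether those on the arrays were injected could not be settled. The other groups set beside these were T0 (sham-operated), T1 (injured, 1 week) and T1_NPC (transplanted at injury, taken at 1 week), with 4 arrays each.

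Ependymal progenitors of the adult spinal cord divide and migrate after injury, and grafts of such cells are studied for the factors they release on to surviving neurons, glia and immune cells. After a contusion, neurons and myelin are lost at the lesion, microglia and blood-borne macrophages fill it, and astrocytes form a scar around it. The array reads rat RNA from host and graft alike, so that cells of the graft and of the host cannot be told apart, and fewer cells of a type cannot be told apart from less RNA per cell.

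A gene feature was called a differentially expressed gene (DEG) at a limma adjusted p below 0.05, and levels are normalized log2 intensities. Of 35469 features, 3359 were called between T2_NPC and T2 (9.47%), 1638 higher (4.62%) and 1721 lower (4.85%) with transplant. The changes were mostly small: called features rose by a median of 0.67 and fell by a median of 0.66 on the log2 scale, with a median standard error of 0.22 over all features, and 282 rose and 348 fell by at least 2-fold. The median change over all features was -0.028. The groups did not overlap in 6871 features (19.4%).

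The 4 T2_NPC arrays filled a slide of their own and were scanned on another day than the T2 arrays, so transplant, slide and scan session cannot be told apart. The T2 arrays came from 2 other scan sessions, and 782 of the 3359 DEGs passed the threshold against the 2 T2 arrays of each session taken alone. T2_NPC arrays were dimmer before normalization, with a median processed intensity of 120 to 136 against 146 to 182 in T2, and 78.0% to 80.9% of their spots were well above background against 75.1% to 81.3%. For T2 replicates 1 and 4 the deposited value column had the rank order of a scanner file deposited under another group. With the scanner files taken under the samples they were deposited with, 43 features were called in place of 3359. The T2_NPC labels give T7 to T10 as the segment and do not mention dura mater. The T2 labels give T6 to T10 without dura. Of 20 measured meningeal genes 0 were called by limma, against 9.47% of all features, with 2 at an unadjusted p below 0.05. Their median change was -0.06, at 0.26 against the T2 arrays of session 1 and -0.10 against those of session 2. Under the deposited samples it was 0.74. Whether the dissection differed was not tested. Marker genes of skeletal muscle, which could come with the dissection, had a mean level of 6.81 to 6.91 in T2_NPC. In T2 it was 7.21 and 7.18 on the arrays of session 1 and 6.81 and 6.80 on those of session 2. Of 25 measured muscle genes 1 was called higher and 1 lower (8.0%, against 9.47% of all features). Their median change was -0.37 against session 1 and -0.05 against session 2.

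The largest rises were those of a globin, a synaptic adhesion molecule, an amine oxidase-like protein and proteins of myelin, antigen presentation and cAMP signalling. Hbb, the beta chain of haemoglobin, was at 9.69, 11.32, 11.08 and 11.31 in T2 and at 13.21, 12.09, 14.17 and 12.35 in T2_NPC. It rose by 2.11 ± 0.41 on the log2 scale (SE, n = 4 a group, adjusted p = 0.00209), or 4.30-fold, and T2 replicate 1 lay well below the other 3 injured cords. The other 11 measured genes of the red blood cell list were not called, among them Hbb-b1 (0.31), Alas2, the first enzyme of haem synthesis in red cells (0.75), and the anion exchanger Slc4a1 (-0.35).

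Lrfn1, a leucine-rich repeat protein that organizes excitatory synapses, was at 4.75, 5.33, 4.61 and 4.75 in T2 and at 7.16, 6.90, 6.73 and 6.73 in T2_NPC, a rise of 2.02 ± 0.17 (adjusted p = 7.14e-08). Doxl1, a diamine oxidase-like protein, was at 8.83, 9.33, 9.12 and 8.5 in T2 and at 11.06, 10.88, 10.71 and 10.62 in T2_NPC, a rise of 1.87 ± 0.19 (adjusted p = 1.30e-06). For both genes the groups lay more than 1 log2 unit apart, and both T2_NPC means were also above T0, by 1.34 (adjusted p = 6.19e-07) and 1.2 (adjusted p = 1.38e-05). In the acute transplant group neither gene was called, and T1_NPC minus T1 was -0.12 for Lrfn1 and -0.14 for Doxl1. The difference between the subacute and the acute effect, in which an effect shared by the scan session of both transplanted groups cancels, was 2.14 for Lrfn1 (adjusted p = 6.29e-05) and 2.01 for Doxl1 (adjusted p = 4.57e-04). T1_NPC and T2_NPC filled different slides, so an effect of slide does not cancel in it and cannot be told apart. The 2 groups share a session by the scanner files matched on rank order but not by those deposited, and T1 and T2 differ in their mix of sessions.

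**Figure D1:**
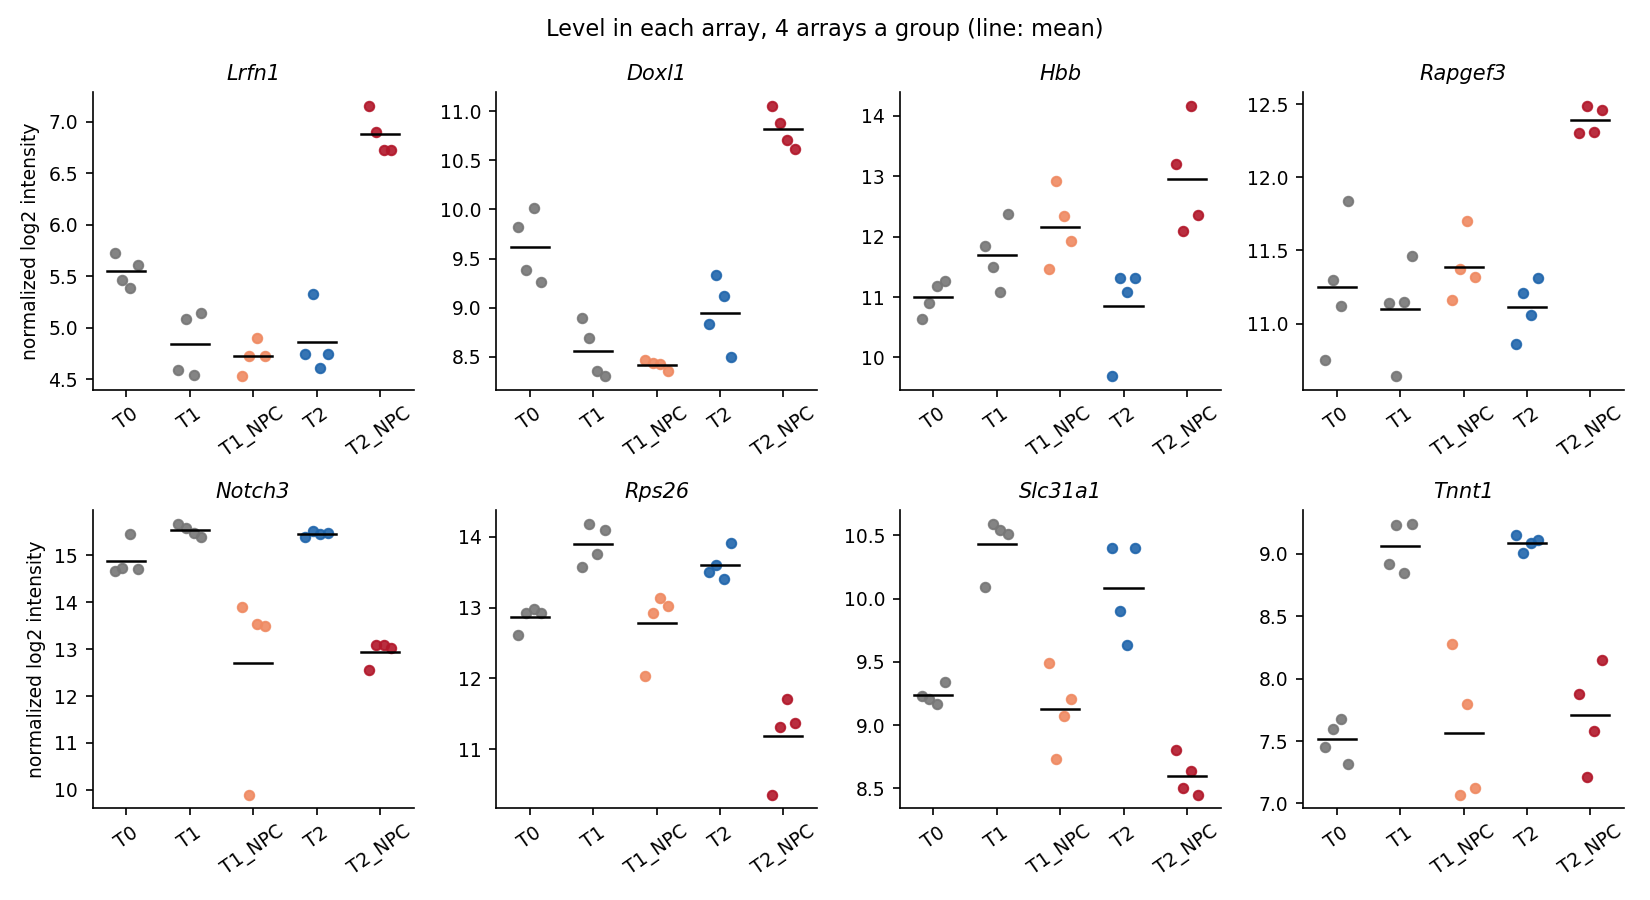
Normalized log2 intensity (y axis) of 8 of the genes with the largest changes in every array of T0, T1, T1_NPC, T2 and T2_NPC, with a line at each group's mean. For Lrfn1 and Doxl1 the T2_NPC mean stood above the means of the other 4 groups, and for Notch3, Slc31a1 and Tnnt1 both transplanted means lay below those of T1 and T2.

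Rapgef3, which encodes the cAMP-activated exchange factor EPAC1, was at 10.86, 11.21, 11.06 and 11.31 in T2 and at 12.30, 12.49, 12.31 and 12.46 in T2_NPC. The rise was 1.28 ± 0.21 (adjusted p = 4.12e-04), or 2.43-fold, and stood 1.14 above T0 (adjusted p = 6.94e-05), whose mean of 11.25 was close to that of T2. Rtn4rl2, a receptor of the Nogo receptor family that binds myelin inhibitors of axon growth, was at 11.46, 12.66, 12.39 and 12.48 in T2 and at 13.58, 13.98, 13.72 and 13.55 in T2_NPC, a rise of 1.46 ± 0.26 (adjusted p = 9.74e-04), and was also called in T1_NPC against T1 (1.35, adjusted p = 0.00155).

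Mbp, a main protein of compact myelin, was at 15.31, 15.07, 14.80 and 15.38 in T2 and at 16.44, 16.53, 16.69 and 16.61 in T2_NPC, a rise of 1.43 ± 0.27 (adjusted p = 0.00182) that both of its probes showed, at 1.51 and 1.35. Ctnnd2, a delta-catenin of dendrites, rose by 1.35 ± 0.26 (adjusted p = 0.00200), from 8.36 to 8.75 in T2 to 9.69 to 10.04 in T2_NPC. RT1-CE7, a rat MHC class I gene of a multigene locus whose close copies a probe may also bind, was at 11.53 to 12.06 in T2 and 13.01 to 13.27 in T2_NPC (1.34 ± 0.26, adjusted p = 0.00208). Parp9, an interferon-inducible ADP-ribosyltransferase family member, was at 9.51 to 10.49 in T2 and 11.07 to 11.41 in T2_NPC (1.30 ± 0.30, adjusted p = 0.00798). The other 3 of the 12 largest rises were less stable: the cytoskeletal linker Ppl (1.68, adjusted p = 0.0403), the scavenger receptor Scara3 (1.33, adjusted p = 0.0282) and the adhesion receptor Gpr56 (1.32, adjusted p = 0.0411) lost the call in 7, 6 and 7 of the 8 fits that left out 1 array of T2 or T2_NPC.

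The largest falls were those of Notch3 and of the ribosomal protein gene Rps26. Notch3, a Notch receptor of vascular mural cells, was at 15.38, 15.51, 15.44 and 15.47 in T2 and at 12.56, 13.08, 13.09 and 13.02 in T2_NPC, a fall of 5.71-fold (-2.51 ± 0.50, adjusted p = 0.00270). The T2 arrays lay close together, and T0 was at 14.88 ± 0.38 (SD, n = 4), above every T2_NPC array. In the acute pair Notch3 went from 15.52 ± 0.12 in T1 to 12.70 ± 1.88 in T1_NPC (-2.82, adjusted p = 8.25e-04), where T1_NPC replicate 2 was at 9.90 and the other 3 at 13.48 to 13.89.

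Rps26 was at 13.50, 13.60, 13.40 and 13.91 in T2 and at 10.36, 11.31, 11.71 and 11.37 in T2_NPC, a fall of 5.33-fold (-2.41 ± 0.24, adjusted p = 7.46e-07). The fall in T1_NPC against T1 was -1.13 (adjusted p = 0.00329). Slc31a1, the main copper importer of the cell membrane, was at 10.40, 9.90, 9.63 and 10.40 in T2 and at 8.80, 8.5, 8.64 and 8.45 in T2_NPC (-1.48 ± 0.17, adjusted p = 5.77e-06), below the T0 mean of 9.24. Tnnt1, a slow skeletal muscle troponin, was at 9.15, 9.01, 9.09 and 9.11 in T2 and at 7.88, 7.21, 7.58 and 8.15 in T2_NPC (-1.38 ± 0.21, adjusted p = 2.51e-04), close to the T0 mean of 7.51. Both genes were also called lower in T1_NPC against T1, by -1.31 (adjusted p = 2.25e-05) and -1.49 (adjusted p = 8.14e-05).

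Pln, the phospholamban that restrains the calcium pump of the sarcoplasmic reticulum, fell by 1.69 ± 0.29 on the log2 scale (adjusted p = 8.11e-04), from 6.27 to 7.40 in T2 to 5.03 to 5.52 in T2_NPC, and T0 stood higher still at 8.57 ± 0.31 (SD, n = 4). Others of the 12 largest falls were Fam184b (-1.97), the phosphatase subunit Dysfip1 (-1.71), the cytokine Ctf2 (-1.35), the chloride channel Clic2 (-1.31), the GABA receptor subunit Gabrq (-1.30) and the adaptor Grb7 (-1.27), with adjusted p between 6.65e-04 and 0.0401. Of these, Fam184b lost the call without T2 replicate 1 or 4, and Gabrq in 7 of the 8 fits without 1 array.

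**Figure D2:**
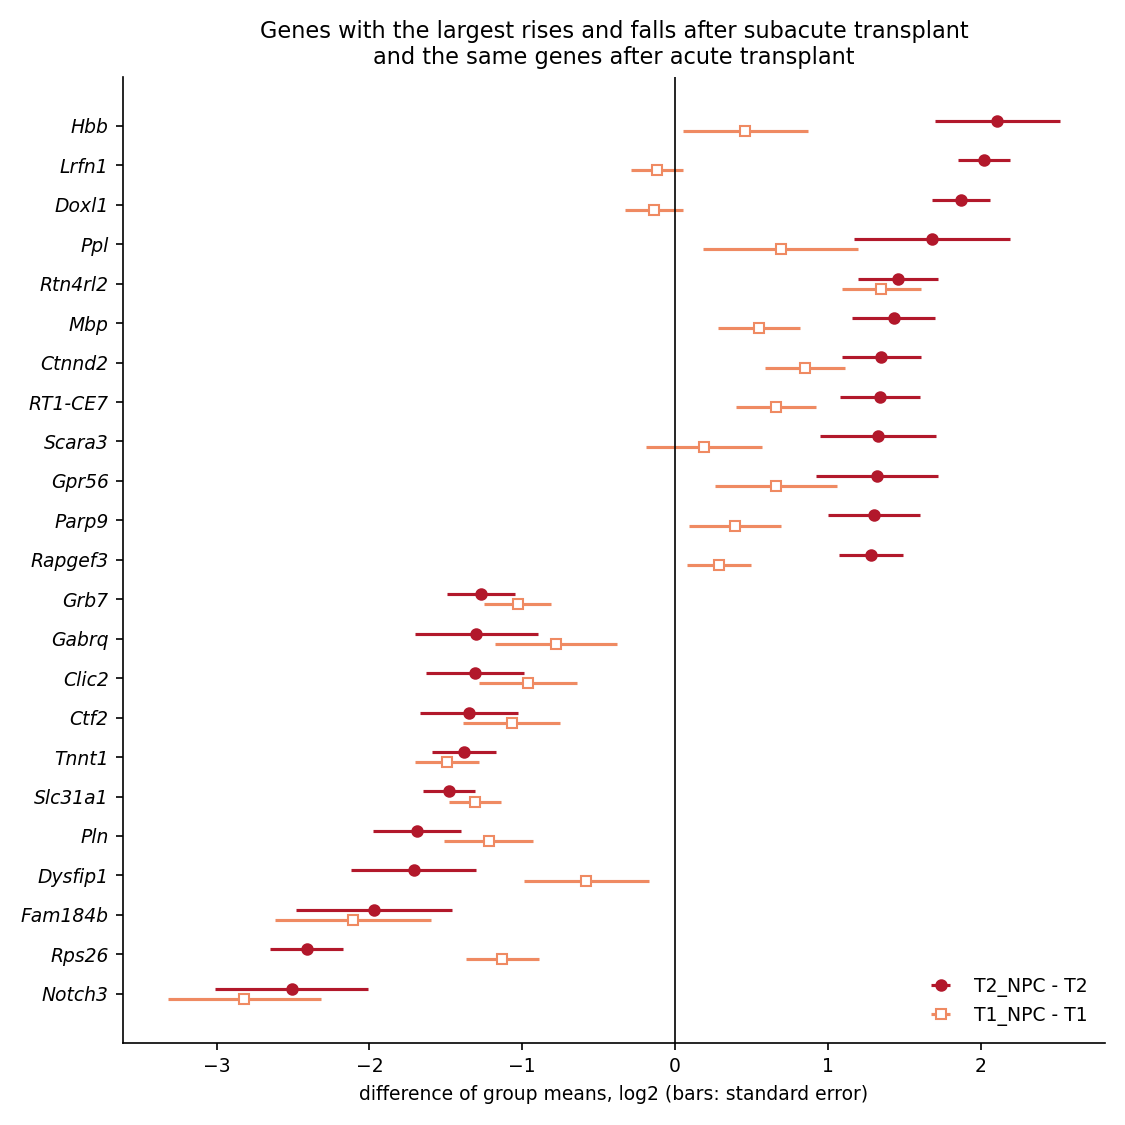
Difference of group means on the log2 scale (x axis, bars give the standard error) of genes among the 12 that rose most and the 12 that fell most in T2_NPC against T2 (filled circles), beside the same genes in T1_NPC against T1 (open squares). The 2 comparisons lie close together for Rtn4rl2, Tnnt1, Slc31a1 and Notch3 and apart for Lrfn1 and Doxl1.

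Of these 24 genes, 19 kept the call whichever of the 8 arrays was left out, 20 kept it with slide as a random block, and 15 were called against the T2 arrays of session 1 and of session 2 separately. In T1_NPC against T1, 11 of the 24 were called, among them 9 of the 12 falls, and 22 had the same sign. With the scanner files taken under their deposited samples, 4 were called, Lrfn1, Doxl1 and Rps26 among them. A further 4 named genes were well above background on all T2 arrays and on no T2_NPC array, so that only a bound holds: Ndufaf2, an assembly factor of respiratory complex I, was at least 3.86-fold lower with transplant (adjusted p = 1.80e-06), Oit3 at least 2.62-fold (adjusted p = 0.0297), the kallikrein Klk1c10 at least 2.59-fold (adjusted p = 0.00944) and the olfactory receptor Olr419 at least 1.71-fold (adjusted p = 0.0298). Oit3 and Olr419 lost the call in 5 and 6 of the 8 fits that left out 1 array. Ndufaf2 and Olr419 were also called lower by limma in T1_NPC against T1 (adjusted p = 3.28e-05 and 0.0303). No gene was bound the other way.

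The cAMP pathway carries signals from G protein-coupled receptors through adenylyl cyclases to protein kinase A, to the exchange factors EPAC1 and EPAC2 and on to the transcription factor CREB, and its phosphodiesterases end the signal. Of 37 measured genes, 6 were called higher and 1 lower (18.9%, against 9.47% of all features), and the list median was 0.16. Besides Rapgef3, the risen genes were the cyclases Adcy7 (0.69 ± 0.18, adjusted p = 0.0182) and Adcy6 (0.52 ± 0.15, adjusted p = 0.0348), the kinase Map2k1 (0.68 ± 0.18, adjusted p = 0.0177), the phosphodiesterase Pde4a (0.46 ± 0.15, adjusted p = 0.0478) and the BDNF receptor Ntrk2 (0.41 ± 0.12, adjusted p = 0.0402), while the small GTPase Rap1b, a target of EPAC proteins, fell (-0.71 ± 0.14, adjusted p = 0.00310). Of these 7, Rapgef3 and Rap1b kept the call whichever array was left out. One of the 3 probes of Ntrk2 ran the other way, at -0.34.

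The genes of EPAC2, protein kinase A and CREB were not called. Rapgef4 (EPAC2), matched through the array's description of its probe, was at 5.56, 6.33, 5.86 and 5.21 in T2 and at 5.19, 5.22, 6.01 and 5.74 in T2_NPC, against a T0 mean of 8.12 ± 0.22 (SD, n = 4). The T2_NPC level was thus 2.58 log2 units below T0 (adjusted p = 5.06e-08), and its change against T2 was -0.20 ± 0.27 (adjusted p = 0.712). The catalytic subunits Prkaca (0.02, adjusted p = 0.979) and Prkacb (-0.05, adjusted p = 0.891), Creb1 (-0.16, adjusted p = 0.438), the growth factor Bdnf (0.33, adjusted p = 0.583), the kinase Camkk2 (0.09, adjusted p = 0.836) and Ppp1r1b, which encodes DARPP32 (0.35, adjusted p = 0.297), did not pass the threshold either. Prkaca differed by -0.58 against the T2 arrays of session 1 and by 0.62 against those of session 2, neither called. The standard errors of these 7 genes were 0.12 to 0.32, so changes of that order were not detectable. Larger changes could also go uncalled: in simulated data 43% of changes of 1 on the log2 scale were recovered.

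Of the interferon response genes, 5 were called higher with transplant and most did not pass the threshold. Interferon-gamma raises antigen processing in cells that receive it, and type I interferons raise antiviral genes. Of 20 measured interferon-gamma genes, 4 were called higher and 0 lower (20.0%, against 9.47% of all features), with a list median of 0.18. Tap1, a peptide transporter of antigen presentation, was at 11.44, 10.73, 10.73 and 11.77 in T2 and at 12.29, 12.36, 12.05 and 12.38 in T2_NPC, without overlap. It rose by 1.1 ± 0.35 (adjusted p = 0.0499), the GTPase Irgm by 0.86 ± 0.25 (adjusted p = 0.0345) and Socs1, a feedback inhibitor of the pathway, by 0.51 ± 0.15 (adjusted p = 0.0341).

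Of 21 measured type I interferon genes, Ifi44 alone was called (0.85 ± 0.25, adjusted p = 0.0319), which is 4.76% of the list against 9.47% of all features. The difference was above 0 in 19 of 21, the list median was 0.71 against -0.028 for all features, and the groups did not overlap in 9 of 21 against 19.4% of all features. Ifit3 was at 8.04, 7.04, 6.74 and 7.32 in T2 and at 8.73, 9.0, 8.67 and 9.49 in T2_NPC (1.69, adjusted p = 0.0562). Mx2, an antiviral GTPase, was at 10.96, 9.84, 9.69 and 11.06 in T2 and at 11.66, 11.86, 12.80 and 11.83 in T2_NPC (1.65, adjusted p = 0.0892), and its paralog Mx1 differed by 1.64 (adjusted p = 0.113). In Ifit3 and Mx2 every T2_NPC array was above every T2 array, and the 2 T2 arrays of session 2 were above those of session 1.

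The T2 arrays differed by session across the whole list. Its mean level was 10.91 and 10.31 in the T2 arrays of session 2, 9.99 and 9.96 in those of session 1, and 10.80 to 11.44 in T2_NPC. The list median was accordingly 1.04 against session 1 and 0.44 against session 2. The 5 called genes of the 2 interferon lists were called in 1 to 3 of the 8 fits that left out 1 array, 0 of them with slide as a random block, and 0 against the T2 arrays of session 2. In the acute comparison the type I list had a median of -0.14.

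**Figure D3:**
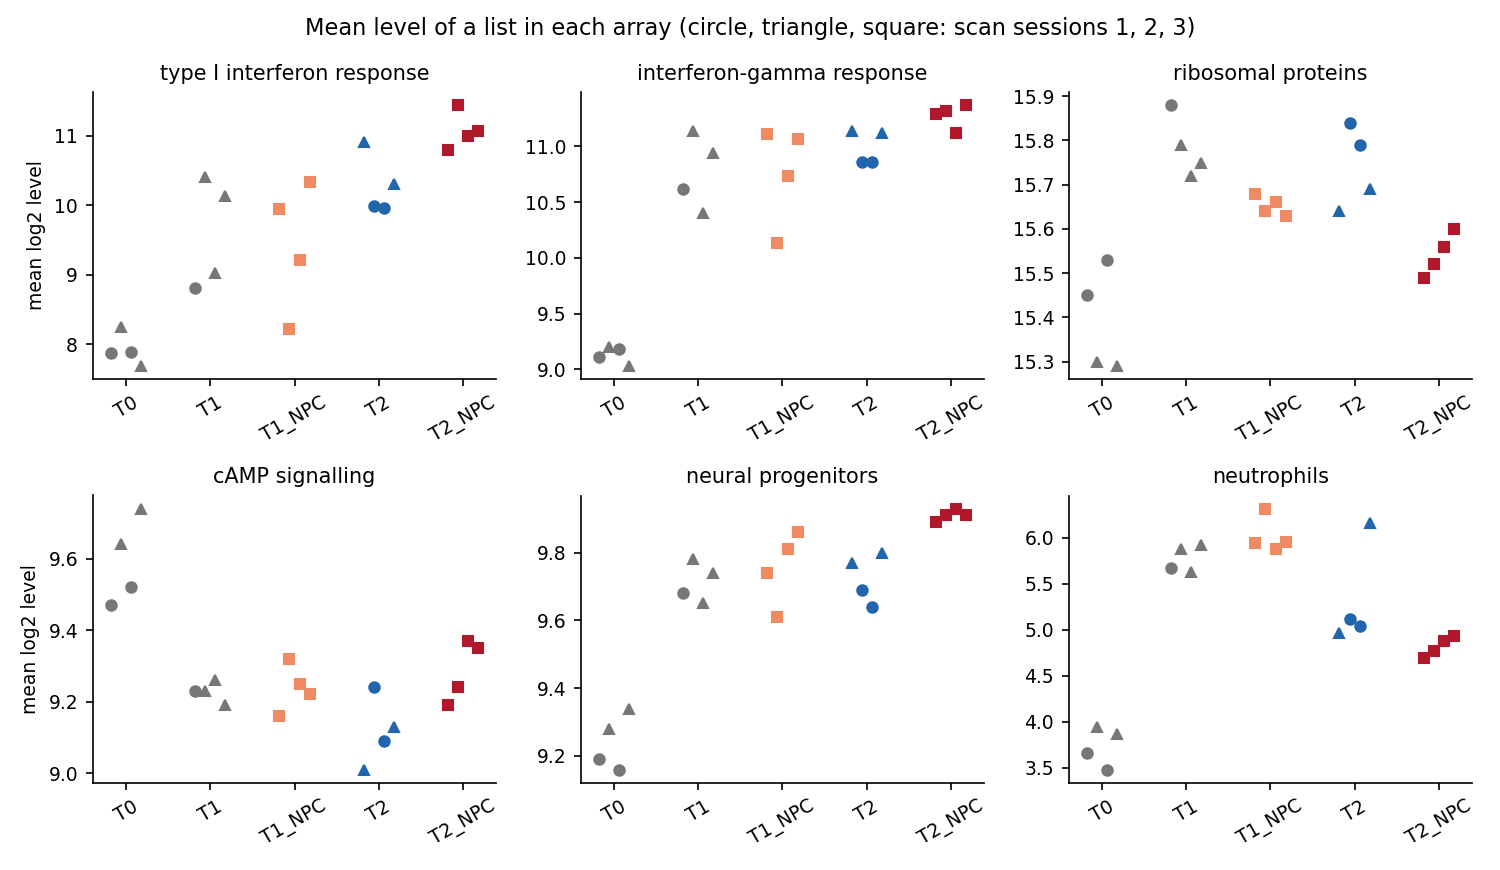
Mean log2 level (y axis) of 6 gene lists in every array, with the marker's shape giving the scan session. In the type I interferon list the T2_NPC arrays lay at 10.80 to 11.44 and the highest T2 array at 10.91, and in the ribosomal protein list all 4 T2_NPC arrays, at 15.49 to 15.60, lay below the T2 arrays at 15.64 to 15.84.

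The upstream sequences of 4 called interferon genes are shown because each holds a motif that interferon-activated factors bind. The interferon-stimulated response element was searched as GAAA, any 2 bases and GAAA again, on both strands, in the 250 bases before each RefSeq gene start of build GRCr8. It occurred in 1140 of 33469 windows (3.41%), in 10 of the 18 interferon-gamma genes with a window (55.6%) and in 10 of the 14 type I genes (71.4%). All 4 called genes with a window held it, and so did 16 of the 28 that were not called. A match describes letters only. Sequences run 5′ to 3′ along the gene's own strand with the motif in capitals, which in Tap1 and Ifi44 is its reverse complement and in Socs1 covers 2 overlapping copies.
Tap1 (chr20:4668544-4668793, minus strand): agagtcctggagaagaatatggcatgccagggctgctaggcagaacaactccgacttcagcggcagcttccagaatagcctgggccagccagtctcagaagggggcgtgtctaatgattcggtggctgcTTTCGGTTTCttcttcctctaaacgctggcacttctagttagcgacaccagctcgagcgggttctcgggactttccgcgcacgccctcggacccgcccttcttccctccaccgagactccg
Irgm (chr10:33742579-33742828, minus strand): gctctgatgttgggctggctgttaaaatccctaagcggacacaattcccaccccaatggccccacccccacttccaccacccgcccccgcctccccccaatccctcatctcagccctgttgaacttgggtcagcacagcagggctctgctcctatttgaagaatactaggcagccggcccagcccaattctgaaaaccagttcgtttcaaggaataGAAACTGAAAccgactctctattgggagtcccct
Socs1 (chr10:5389324-5389573, plus strand): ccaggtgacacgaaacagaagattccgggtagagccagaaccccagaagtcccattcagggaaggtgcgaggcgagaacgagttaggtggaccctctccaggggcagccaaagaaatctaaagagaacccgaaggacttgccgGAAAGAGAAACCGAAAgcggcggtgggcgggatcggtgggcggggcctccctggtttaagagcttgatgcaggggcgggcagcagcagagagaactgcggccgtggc
Ifi44 (chr2:243303841-243304090, minus strand): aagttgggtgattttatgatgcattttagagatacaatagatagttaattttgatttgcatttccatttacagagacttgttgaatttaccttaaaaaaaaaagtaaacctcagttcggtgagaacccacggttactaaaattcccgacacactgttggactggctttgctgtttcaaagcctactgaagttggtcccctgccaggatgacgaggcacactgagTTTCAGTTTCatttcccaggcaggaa
The motif lay 121 bases before the start in Tap1, 34 in Irgm and 26 in Ifi44.

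Ribosomal protein genes, which encode the cytosolic ribosome and are expressed in all cells, had 14 calls lower with transplant and 1 higher among 73 measured (20.5%, against 9.47% of all features). The difference was below 0 in 58, and the list median was -0.17 against -0.028 for all features. Apart from Rps26 the called falls were 0.59 or less on the log2 scale. Rps14 was at 16.62, 16.46, 16.24 and 16.32 in T2 and at 15.88, 15.61, 15.81 and 15.98 in T2_NPC (-0.59 ± 0.10, adjusted p = 9.70e-04). Its groups did not overlap. Rpl13 fell by 0.54 ± 0.08 on the log2 scale (adjusted p = 9.55e-05). Rpl3 went the other way (0.68 ± 0.13, adjusted p = 0.00160). Scaling each array to its 75th percentile in place of quantile normalization gave 31 genes lower and 1 higher with a list median of -0.38. Against the T2 arrays of session 1 there were 16 lower (median -0.24), against those of session 2 there were 10 (median -0.07), and under the deposited samples there was 1 (median -0.09). Probes for ribosomal proteins may also bind their many processed pseudogenes.

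The nuclear-encoded respiratory chain had 7 genes lower and 1 higher of 77 measured (10.4%, near the 9.47% of all features), with a median of -0.11. Among those that fell was Cox7c (-0.93 ± 0.19, adjusted p = 0.00407), a subunit of cytochrome c oxidase. Atp5b, the beta subunit of ATP synthase, rose (0.83 ± 0.25, adjusted p = 0.0400), but was called in 1 of the 8 fits that left out 1 array. The count called ranged from 3 to 13 when 1 array was left out. Against the T2 arrays of session 1 there were 15 called lower (median -0.27), and against those of session 2 there were 2 (median 0.04).

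Markers of neural progenitors, the kind of cell grafted, were called higher in 3 of 20 measured and lower in 0 (15.0% called, against 9.47% of all features), and the median was 0.21. Sox2, a transcription factor of neural stem cells that astrocytes and ependymal cells also express, was at 12.80, 12.60, 12.43 and 12.54 in T2 and at 13.10, 13.01, 13.11 and 13.25 in T2_NPC (0.53 ± 0.13, adjusted p = 0.0137). The growth factor receptor Egfr was at 8.10, 8.39, 8.5 and 8.78 in T2 and at 9.74, 9.64, 8.97 and 9.29 in T2_NPC (0.97 ± 0.22, adjusted p = 0.00737), and the adhesion molecule Ncam1 rose by 0.62 ± 0.12 (adjusted p = 0.00299). All 3 kept the call whichever array was left out. Against the T2 arrays of session 2 Sox2 was not called by limma (0.45, adjusted p = 0.113). The progenitor list's median was 0.20 against session 1, with 3 genes higher and 0 lower. Against session 2 it was 0.04, with 2 higher and 1 lower. The defining stem cell genes Nes (0.10), Pax6 (0.06), Fabp7 (0.01), Prom1 (0.24) and Msi1 (0.21) were not called, nor by limma was any of 21 ependymal and motile cilium genes (2 at an unadjusted p below 0.05), Foxj1 among them (-0.32).

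In the Notch pathway, which keeps progenitors undifferentiated and shapes vascular mural cells, Notch3 fell with its target Hey2 (-0.62 ± 0.19, adjusted p = 0.0392), and the Notch inhibitor Numb rose (0.43 ± 0.11, adjusted p = 0.0192). Of the 8 fits that left out 1 array, Notch3 was called in 8, Numb in 5 and Hey2 in 2. The other 17 of 20 measured genes were not called, including Notch1 (0.07), Notch2 (-0.20), the ligand Jag1 (0.66) and the target Hes1 (0.32). The share called was 15.0%, against 9.47% of all features. Among genes of the mural cells that express Notch3, the endothelium and pericyte list had 1 call of 23 (4.35%), the tight-junction gene Cldn5 of endothelial cells (0.52 ± 0.16, adjusted p = 0.0450), and a median of -0.01. Cldn5 was called in 1 of the 8 fits that left out 1 array.

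**Figure D4:**
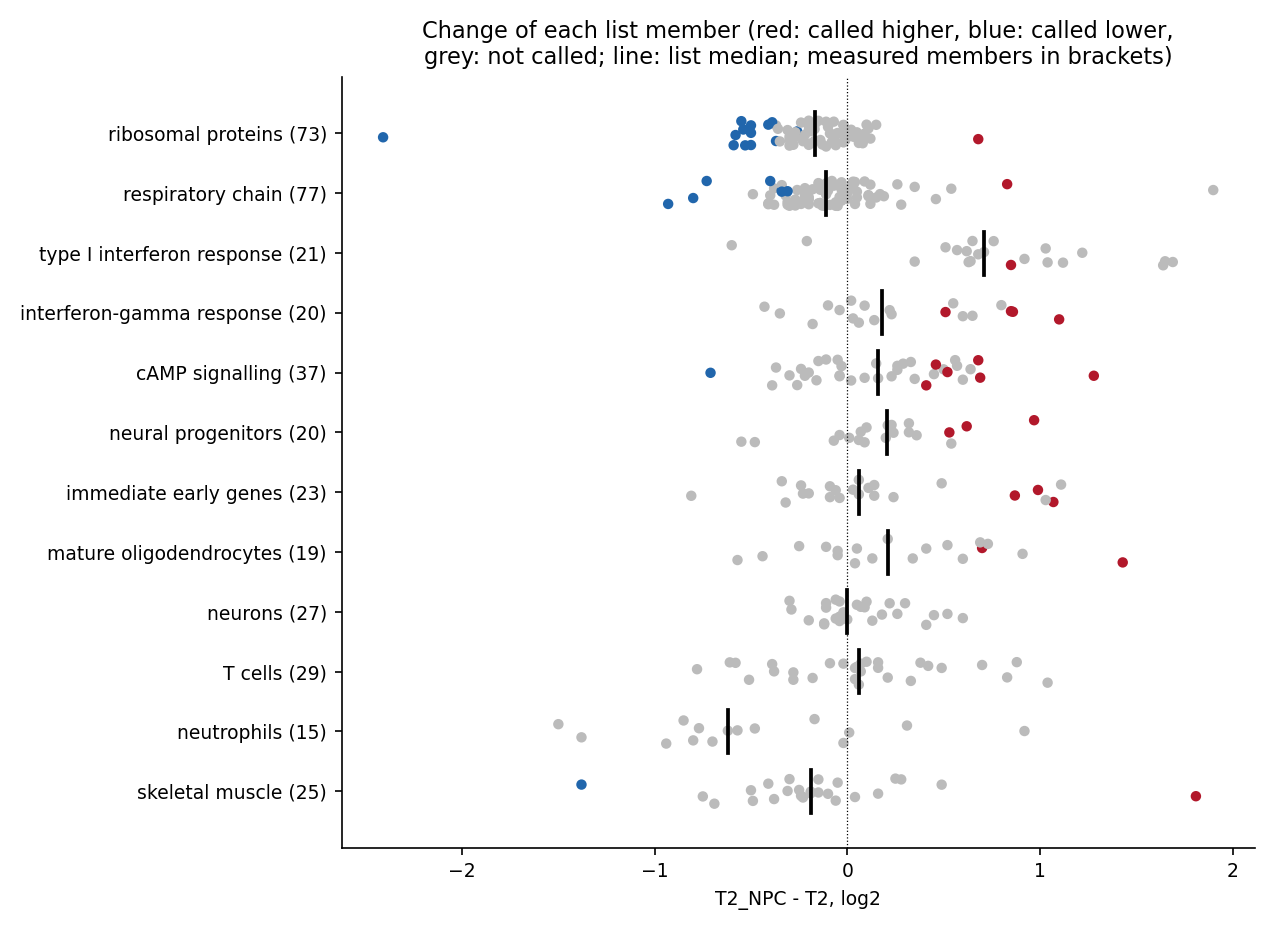
Change in T2_NPC against T2 on the log2 scale (x axis) of every measured member of 12 lists, with called members in red (higher) and blue (lower) and a line at each list's median. The type I interferon list sits at a median of 0.71 with 1 call, the ribosomal list at -0.17 with 14 falls, and the neuron list has a median of 0.00 with no call.

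The share of glial genes called was close to or below the 9.47% of all features, at 10.5% of mature oligodendrocyte, 9.09% of precursor, 5.56% of astrocyte, 5.26% of reactive astrocyte and 11.8% of microglial genes. Of 19 mature oligodendrocyte genes, Mbp and Mobp rose (Mobp 0.70 ± 0.21, adjusted p = 0.0349), with changes of 0.58, 0.09 and 1.44 in the 3 Mobp probes, while Mog (-0.05) and Mag (-0.25) were not called. Of the 8 fits that left out 1 array, Mbp was called in 8 and Mobp in 2. The precursor-stage gene Bcas1 was at 14.54 to 14.92 in T2 and 15.23 to 15.41 in T2_NPC (0.67 ± 0.13, adjusted p = 0.00223). Of 18 astrocyte genes 1 rose, the growth factor receptor Fgfr3 (0.94 ± 0.25, adjusted p = 0.0177), and of 19 reactive astrocyte genes 1, Stat3 (0.41 ± 0.11, adjusted p = 0.0228), which 1 of its 2 probes did not show (-0.03). Fgfr3 was called in 6 and Stat3 in 2 of the 8 fits that left out 1 array. Of 17 microglial genes, Sall1, a transcription factor that maintains microglial identity, rose (0.46 ± 0.10, adjusted p = 0.00716), as did the ATP receptor P2rx7 (0.84 ± 0.26, adjusted p = 0.0424). Without 1 array, Sall1 was called in 8 of the 8 fits and P2rx7 in 2. Sall1 fell in T1_NPC against T1 (-0.51, adjusted p = 0.00277), and the 2 effects differed by 0.97 (adjusted p = 0.00184).

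Blood-derived cells showed almost no called change. Of 27 macrophage genes the lipoprotein lipase Lpl alone was called, lower with transplant (-1.27 ± 0.30, adjusted p = 0.00944), at 9.06, 8.38, 8.44 and 9.82 in T2 and 7.40, 7.19, 7.69 and 8.36 in T2_NPC. None of 29 T cell genes, 10 B cell genes, 15 neutrophil genes, 33 chemokine genes, 12 MHC class II genes or 19 interleukin-1 and inflammasome genes was called by limma, while 9.47% of all features were. At an unadjusted p below 0.05 there were 3 T cell, 2 B cell, 5 neutrophil, 3 chemokine, 1 MHC class II and 2 interleukin-1 and inflammasome genes. Some genes were well above background on no array of T2 or T2_NPC, so changes in them could go unseen. They were 5 T cell, 3 B cell, 2 neutrophil, 2 chemokine and 1 interleukin-1 and inflammasome gene. The neutrophil list had a median of -0.62 and a mean level of 4.69 to 4.93 in T2_NPC, against 4.97 to 5.12 in T2 replicates 1 to 3 and 6.16 in T2 replicate 4. Complement genes C1qa (0.61 ± 0.16, adjusted p = 0.0171) and C1qc (0.53 ± 0.16, adjusted p = 0.0433), which microglia and macrophages make, rose, and Cfd, complement factor D, fell (-0.57 ± 0.18, adjusted p = 0.0497). Of 20 measured complement genes 15.0% were called. Of the 8 fits that left out 1 array, C1qa was called in 7, C1qc in 3 and Cfd in 1.

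In the pathway that FK-506 blocks, calcineurin and NFAT, Rcan1, an inhibitor of calcineurin, rose (0.38 ± 0.09, adjusted p = 0.00696) and the catalytic subunit Ppp3ca fell (-0.58 ± 0.14, adjusted p = 0.0136), while the other 13 of 15 measured genes were not called. The share called was 13.3%, against 9.47% of all features. One Ppp3ca probe fell by 1.0 and the other changed by -0.15. Both genes were also called in T1_NPC against T1, at 0.32 (adjusted p = 0.0189) and -0.49 (adjusted p = 0.0289).

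None of 27 neuronal genes was called by limma, 1 had an unadjusted p below 0.05, and their median change was 0.00, beside a median of -1.72 in T2 compared with T0. The median was -0.39 against the T2 arrays of session 1 and 0.54 against those of session 2. Of 34 glutamate, GABA and glycine receptor genes, 14.7% were called, against 9.47% of all features. Among them 4 glutamate receptors rose: Grm5 (1.12 ± 0.25, adjusted p = 0.00720), Grin2b (0.93 ± 0.29, adjusted p = 0.0442), Grik1 (0.83 ± 0.23, adjusted p = 0.0265) and Grik5 (0.59 ± 0.18, adjusted p = 0.0355). Of the 8 fits that left out 1 array, Grm5 was called in 8, Grik1 in 3, and Grin2b and Grik5 in 2. With slide as a random block, Grm5 alone of these 4 was called. The GABA receptor subunit Gabrb2 fell (-0.83 ± 0.19, adjusted p = 0.00877). Grm5 was at 3.76, 4.82, 4.70 and 4.61 in T2, at 5.13, 5.73, 5.85 and 5.63 in T2_NPC and at a mean of 5.51 in T0. The receptor list's median was -0.39 against the T2 arrays of session 1, where 0 of its genes were called. Grm5 and Gabrb2 were thus not called there by limma (adjusted p = 0.0725 and 0.116). Against the arrays of session 2 the list's median was 0.43, with 5 genes higher and 1 lower. The potassium channels Kcnd2 (-0.82 ± 0.23, adjusted p = 0.0298) and Kcnj9 (-0.57 ± 0.16, adjusted p = 0.0299) and the calcium channel Cacna1i (-0.73 ± 0.17, adjusted p = 0.00807) fell. Of 30 sodium and potassium channel genes 10.0% were called and of 19 calcium channel genes 5.26%, against 9.47% of all features. Kcnd2 and Kcnj9 were not called by limma against the T2 arrays of session 2 (adjusted p = 0.172 and 0.191). The sodium and potassium list's median was -0.33 against session 1 and 0.32 against session 2.

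The immediate early genes Fos, Fosb and Junb, which encode subunits of the transcription factor AP-1, rose among 23 measured. Fos was at 11.29, 11.20, 11.19 and 11.78 in T2 and at 12.57, 12.57, 12.25 and 12.34 in T2_NPC (1.07 ± 0.19, adjusted p = 8.69e-04). Junb rose by 0.99 ± 0.26 (adjusted p = 0.0170) and Fosb by 0.87 ± 0.22 (adjusted p = 0.0139). Of the 8 fits that left out 1 array, Fos was called in 8, and Junb and Fosb in 6. Against the T2 arrays of session 1 Junb and Fosb were not called by limma (adjusted p = 0.139 and 0.152). Fos and Junb were also called in T1_NPC against T1, at 1.07 (adjusted p = 7.23e-04) and 1.53 (adjusted p = 4.74e-04). The list median was 0.06, and Egr1 (-0.09), Jun (-0.20) and Arc (-0.32) were not called.

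In cholesterol synthesis, whose enzymes supply the membrane lipid of new myelin, 3 of 24 genes rose and 1 fell (16.7% called, against 9.47% of all features). Cyp51, which demethylates lanosterol, was at 11.22, 11.59, 10.97 and 11.27 in T2 and at 12.04, 12.13, 12.21 and 12.10 in T2_NPC (0.85 ± 0.13, adjusted p = 2.82e-04), still below its T0 mean of 13.40. Hmgcs1, an early enzyme of the pathway, was not called (0.01).

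Other repair-related lists had isolated calls. Among 27 measured axon growth genes, 7.41% were called, against 9.47% of all features. The repellent Sema3a (0.78 ± 0.17, adjusted p = 0.00506) and Rtn4, which encodes the myelin inhibitor Nogo (0.38 ± 0.12, adjusted p = 0.0459), rose. Of the 8 fits that left out 1 array of T2 or T2_NPC, Sema3a was called in 8 and Rtn4 in 0. The proteoglycan Ncan rose as the only call of 35 scar matrix genes (0.47 ± 0.12, adjusted p = 0.0143). Of 27 matrix protease and inhibitor genes 7.41% were called, against 9.47% of all features. In that list the aggrecan-cutting protease Adamts4 rose (1.18 ± 0.27, adjusted p = 0.00856). Adamts1, which also cuts aggrecan, fell (-0.98 ± 0.20, adjusted p = 0.00332). Birc5 (-1.0 ± 0.21, adjusted p = 0.00460) and Pcna (-0.47 ± 0.14, adjusted p = 0.0357) fell and Aurka rose (0.44 ± 0.14, adjusted p = 0.0491) of 31 proliferation genes (9.68% called). The mitochondrial superoxide dismutase Sod2 (-0.59 ± 0.18, adjusted p = 0.0421) and Gpx7 (-0.78 ± 0.21, adjusted p = 0.0187) fell of 28 antioxidant genes (7.14% called), and the neuropoietic cytokine Lif fell (-0.57 ± 0.15, adjusted p = 0.0199). Of the 8 fits without 1 array, Birc5 was called in 8, Gpx7 and Lif in 6, Pcna in 3, Aurka in 1 and Sod2 in 0.

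**Figure D5:**
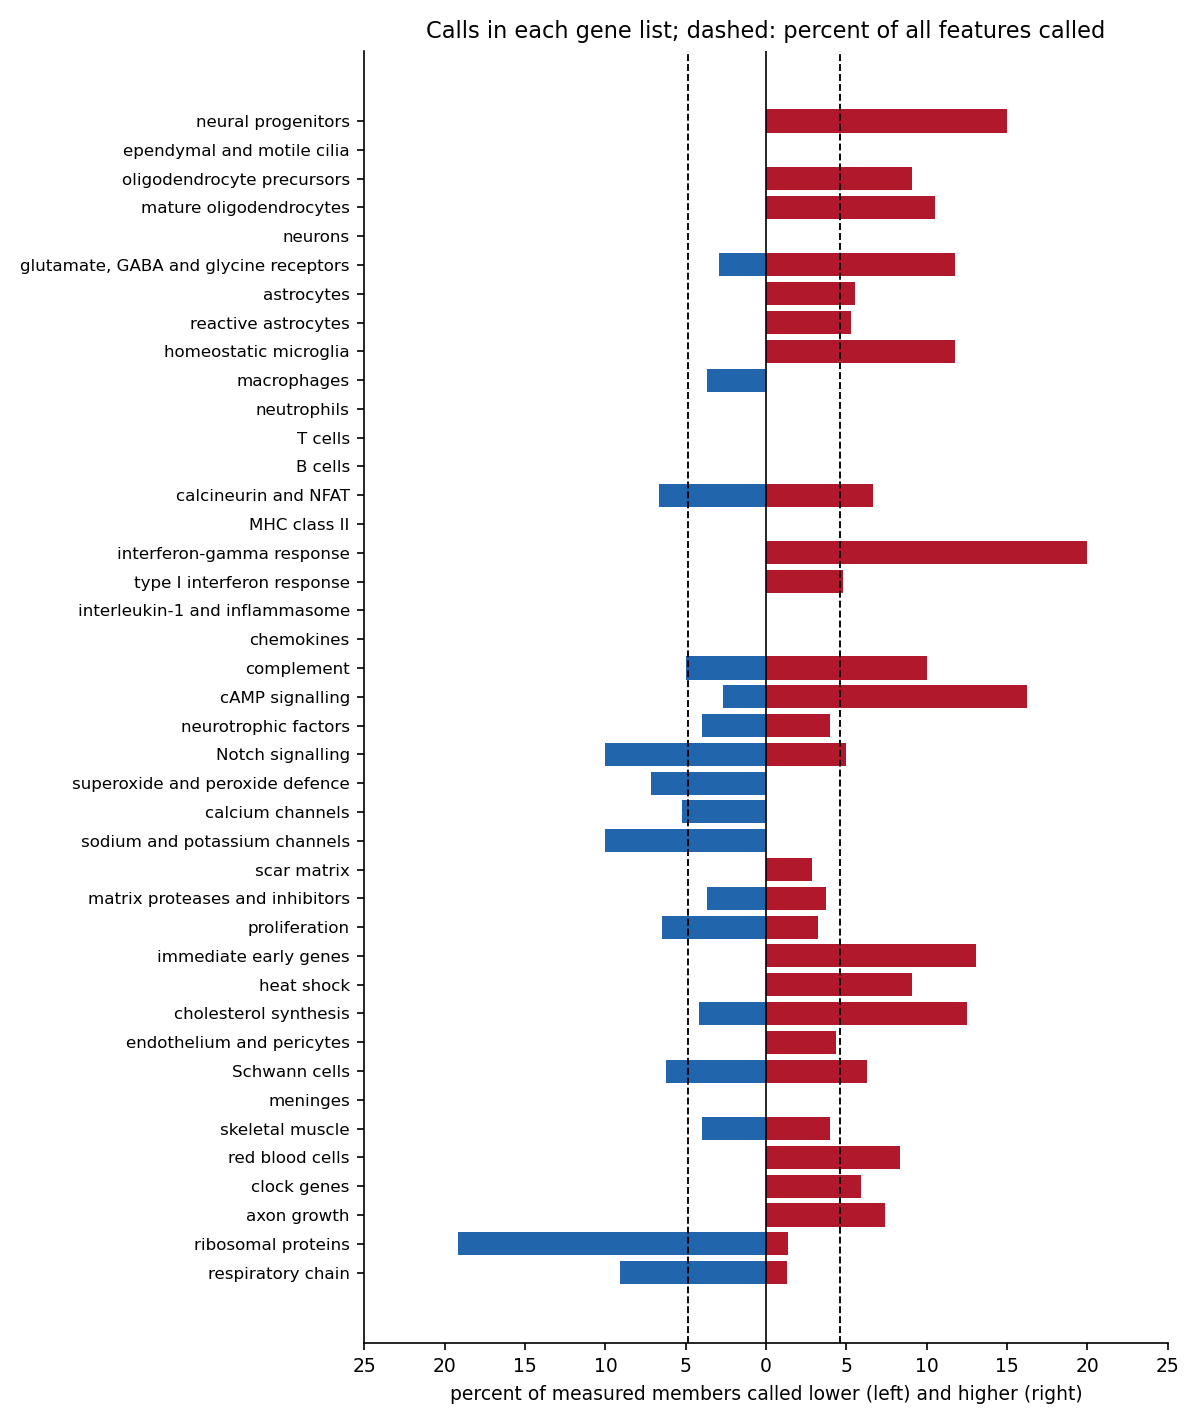
Percent of the measured members of each gene list called lower (left, blue) and higher (right, red) in T2_NPC against T2, with dashed lines at the percent of all features called lower (4.85%) and higher (4.62%). Ribosomal proteins extend furthest to the left and interferon-gamma response and cAMP signalling furthest to the right.

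Over all 42 lists, 89 of 983 measured genes were called, 48 higher and 41 lower, and 41 of the 89 kept the call whichever of the 8 arrays was left out. The share called was near the 9.47% of all features. For the test of the difference between the subacute and the acute effect, 106 features passed (0.299%), 45 higher and 61 lower, and 33 of them were also called between T2_NPC and T2. The named genes that were called in both were, besides Lrfn1, Doxl1 and Sall1, Fndc7 (0.82 here against -0.91 in the acute pair), B4galt4 (0.47 against -0.48), Homer2 (0.39 against -0.44), Hic1 (0.39 against -0.22) and Il17rc (-1.25 against 0.29). The others with a symbol were Senp17 and 3 olfactory receptor genes.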

How the data were processed

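RNA of 28 rat spinal cord pieces, 4 for each of 7 groups, was hybridised to Agilent 1-colour whole-genome arrays. The authors deposited a table of log2 values, background-corrected and quantile-normalized per their methods, and scanner files with the intensity of each spot, from which gene names and background flags were taken. Control spots were left out, spots were averaged per probe and 41012 probes per gene name, giving 35469 features. Groups follow the labels, and the methods of the study describe the 4 arrays of a group as biological replicates from different animals. A limma 3.58.1 model (R 4.3.3) with a mean for each of 7 groups was fitted to all 28 arrays, with Benjamini-Hochberg adjustment over all features. The array's number of samples, not depth, limits the precision. Value columns were set against scanner files by rank order: 12 of 28 arrays matched their own file and 16 a file deposited under another sample. Slide and scan session are those of the matched file.

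Named genes were the 12 largest rises and 12 largest falls among called features with a symbol, well above background on all arrays of both groups and without overlap, the 4 largest bounded changes each way, and 7 cAMP genes. A bound sets the bright group's mean against the lowest signal well above background on each dim array. The comparison, the members and the gene lists were chosen with earlier results of these data known. In simulated data, the same test recovered 43% of changes of 1 and 89% of changes of 2 on the log2 scale, with 5.04% false calls. The simulated data had 200 changed features and no effect of slide or session, so these rates need not hold for the real arrays. Alternatives covered normalization, background correction, dim probes, probe choice, slide, session, replicate block and leaving out each array. Normexp used the spot median, since 20 of 28 files lack the mean signal, and this and the replicate block with only 8 arrays were chosen after seeing the data. Results for some genes are not reported here.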

Additional observations from a re-analysis of the deposited data

Results flagged for a closer look

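Among 117 genes and 234 groups of 4 arrays examined, 9 arrays stood apart from the other 3 of their group, where chance gives about 1 in 20 groups. They were Hbb in T2 replicate 1 (9.69, the lowest), Notch3 in T2_NPC replicate 1 (12.56), Fos in T2 replicate 4 (11.78, the highest), Ppp3ca in T2 replicate 3 (11.15), Cacna1i in T2_NPC replicate 4 (4.23), Sema3a in T2_NPC replicate 4 (6.47), Rpl3 in T2_NPC replicate 4 (15.16), Rps29 in T2_NPC replicate 1 (15.68) and Cox8a in T2_NPC replicate 4 (16.30). For 3 genes the effect of the subacute transplant differed from that of the acute transplant by limma's test of the difference: Lrfn1 by 2.14, Doxl1 by 2.01 and Sall1 by 0.97 on the log2 scale.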

How the results depend on the processing

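Of 3359 features called, 1332 remained called whichever of the 8 arrays was left out. Leaving out 1 array of T2 or T2_NPC gave 1899 to 3409 called, 861 to 1711 higher and 1038 to 1698 lower, with 2040 without T2 replicate 1, 2177 without T2 replicate 3, 1899 without T2_NPC replicate 2 and 2233 without T2_NPC replicate 3. The arrays of T1 and T1_NPC, which share the estimate of spread, gave 3114 to 4467, the highest without T1_NPC replicate 2. Scanner signals under their deposited samples gave 43 (11 higher, 32 lower), slide as a random block 1623 (724 and 899), the T2 arrays of session 2 alone 2109 (840 higher), and a change of at least 2-fold 630 (282 and 348). The 106 calls of the difference of effects became 4 under the deposited samples, 1976 with 75th percentile scaling, 52 with normexp, 62 without dim probes and 40 with slide as a random block, and 53 to 236 without 1 array. Replicate numbers were not taken as pairs. Correlations of same-numbered arrays were 0.195, 0.00188, 0.155 and -0.027, and those of arrays with different numbers ran from -0.245 to 0.143. A replicate block gave 2940 calls, and 1 (0 higher, 1 lower) with only the 8 arrays. The cause of these changes was not tested. No alternative turned the direction of a named gene that was called, while 5 cAMP genes and Rapgef4, none called, changed sign in 17 settings. Under the deposited samples Prkaca was -0.51, Camkk2 -0.58, Bdnf -0.02 and Creb1 0.01. Against session 1 Prkaca was -0.58 and Camkk2 -0.17, and against session 2 Rapgef4 (feature ENSRNOT00000010630) was 0.16 and Prkacb 0.17. Normexp gave Prkaca -0.00. Without 1 array of T2 or T2_NPC, Prkaca ranged from -0.24 to 0.26, Camkk2 from -0.05 to 0.19 and Prkacb from -0.17 to 0.04. The 75th percentile scaling moved the split to 1349 higher and 1899 lower.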
